A study of Mus musculus with 4 samples.

Results

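The immunoglobulin loci encode the heavy chain (Igh, chromosome 12) and the κ and λ light chains (Igk, chromosome 6, and Igl, chromosome 16) of the B cell receptor. Peaks of a chromatin immunoprecipitation followed by sequencing (ChIP-seq) of the transcription factor MIZ-1 were assigned to a locus when the peak summit lay in chr12:113225000-116010000 (Igh), chr6:67555000-70727000 (Igk) or chr16:19026000-19260000 (Igl) of mm10. The rule used positions only. It took 209 of 112566 peaks in all, of which 68 of 34209 were in the MIZ-1WT list (30 in Igh, 35 in Igk and 3 in Igl) and 141 of 78357 in the MIZ-1DPOZ list (50, 84 and 7).

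The lists came from B220+ splenocytes of C57BL/6 background mice aged 40 to 70 days, immunoprecipitated with the MIZ-1 antibody H-190. MIZ-1WT cells were wild type, and MIZ-1DPOZ cells came from a cross of MB1-Cre with Miz-1 floxPOZ mice, in which Cre driven by the B lineage promoter MB1 (Cd79a) deletes the part of the gene that encodes the POZ domain. The truncated protein keeps its zinc fingers. Each genotype had 1 ChIP library and 1 input library, and how many mice went into each is not given in the sources used here. There is therefore no replicate, no test between genotypes was possible, and every interval given is a 95% interval for counting error only. Peak lists hold no expression values, so the B220+ label could not be checked against marker genes. Splenic B cells carry V(D)J-rearranged loci, whereas positions are given on the unrearranged reference.

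B cells assemble an antibody gene by joining a V segment to J, or to D and J in the heavy chain. Each V segment has its own promoter. In Igh and Igk, transcription is driven by enhancers in the intron between J and the constant gene and beyond the constant genes. In the heavy chain, class switching then exchanges the constant gene by recombination between switch regions, G-rich tandem repeats with many AGCT motifs that lie upstream of each constant gene except Ighd.

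Most summit windows in the loci were repeat-masked. The sequences shown here come from the constant side of Igh, from tandem repeats and from the largest sequence families, strong and weak peaks alike, and were read 5′ to 3′ from the GRCm38 reference (mm10). The first 5 lie in the constant side of Igh, on the minus strand, which is the coding strand of the locus. In the first 2, which are the summits upstream of Ighm, capitals mark the pentamer GAGCT, its variant GGGCT or its variant GGGGT. In the other 3, from peaks of the MIZ-1DPOZ list, they mark AGCT.
upstream of Ighm at the MIZ-1WT summit, chr12:113424383-113424503, minus strand: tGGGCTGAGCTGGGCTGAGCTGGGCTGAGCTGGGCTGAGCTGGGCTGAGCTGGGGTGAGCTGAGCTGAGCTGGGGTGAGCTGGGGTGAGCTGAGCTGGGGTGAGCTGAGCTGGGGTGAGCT
upstream of Ighm at the MIZ-1DPOZ summit, chr12:113425041-113425161, minus strand: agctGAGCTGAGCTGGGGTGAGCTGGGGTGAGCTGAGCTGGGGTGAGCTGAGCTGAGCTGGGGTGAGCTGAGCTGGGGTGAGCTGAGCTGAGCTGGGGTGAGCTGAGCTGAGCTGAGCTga
upstream of Ighg3, chr12:113363526-113363646, minus strand: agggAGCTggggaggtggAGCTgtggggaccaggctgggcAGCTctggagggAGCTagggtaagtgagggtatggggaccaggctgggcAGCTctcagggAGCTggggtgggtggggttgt
upstream of Ighg1, chr12:113335993-113336113, minus strand: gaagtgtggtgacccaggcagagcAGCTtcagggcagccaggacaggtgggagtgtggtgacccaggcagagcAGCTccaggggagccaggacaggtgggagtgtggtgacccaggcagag
upstream of Ighg2b, chr12:113311864-113311984, minus strand: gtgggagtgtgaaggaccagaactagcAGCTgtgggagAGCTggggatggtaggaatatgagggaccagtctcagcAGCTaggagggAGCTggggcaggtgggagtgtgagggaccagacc

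Another 2 sequences are tandem repeats under peaks found in both lists. Capitals mark whole copies of a unit of 17 bases in the first and the 9-base units GGGGCCTGT and GGGGGCTGT in the second.
beyond Igha, chr12:113225545-113225665, plus strand: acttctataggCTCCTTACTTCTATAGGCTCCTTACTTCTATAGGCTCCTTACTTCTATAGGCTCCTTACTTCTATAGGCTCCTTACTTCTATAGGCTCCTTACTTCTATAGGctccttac
near Igkv2-137, chr6:67558935-67559055, plus strand: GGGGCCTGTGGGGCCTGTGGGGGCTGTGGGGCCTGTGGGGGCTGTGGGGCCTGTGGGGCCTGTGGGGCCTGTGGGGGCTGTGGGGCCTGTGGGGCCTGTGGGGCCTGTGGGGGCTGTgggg

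The remaining sequences come from 3 families of interspersed repeats that had members in all 3 loci. For each family, the member with the largest pileup is set beside a member of another locus. The second was chosen for the longest exact run shared within the summit windows compared, marked by capitals. A match can continue past the edge of a window. In family 1, lower-case bases just before the capitals match as well.
family 1, Igk, chr6:68428889-68429009, plus strand: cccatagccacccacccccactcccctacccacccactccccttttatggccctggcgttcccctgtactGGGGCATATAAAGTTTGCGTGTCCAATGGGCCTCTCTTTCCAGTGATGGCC
family 1, Igh, chr12:114786713-114786833, plus strand: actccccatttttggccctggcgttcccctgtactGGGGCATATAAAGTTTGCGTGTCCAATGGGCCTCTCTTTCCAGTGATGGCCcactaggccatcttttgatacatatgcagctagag
family 2, Igk, chr6:69036124-69036244, plus strand: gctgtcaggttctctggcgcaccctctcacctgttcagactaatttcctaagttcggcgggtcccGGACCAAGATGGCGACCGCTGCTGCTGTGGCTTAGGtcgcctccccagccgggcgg
family 2, Igl, chr16:19145649-19145769, plus strand: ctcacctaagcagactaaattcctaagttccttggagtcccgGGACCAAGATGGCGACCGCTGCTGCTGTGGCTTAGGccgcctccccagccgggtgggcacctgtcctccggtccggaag
family 3, Igh, chr12:114330832-114330952, plus strand: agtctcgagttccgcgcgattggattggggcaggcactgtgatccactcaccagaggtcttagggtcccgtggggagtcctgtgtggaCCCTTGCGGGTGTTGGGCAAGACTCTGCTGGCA
family 3, Igk, chr6:70477717-70477837, minus strand: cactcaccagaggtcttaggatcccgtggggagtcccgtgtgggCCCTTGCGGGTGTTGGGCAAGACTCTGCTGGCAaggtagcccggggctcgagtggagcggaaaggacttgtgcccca

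To ask whether the loci held many or few peaks, the density of each was set against the rest of its chromosome. In the MIZ-1DPOZ list, Igh held 18.0 peaks per Mb (13.3 to 23.7) against 28.7 per Mb on chromosome 12 outside it, a ratio of 0.625 (0.464 to 0.824). Its MIZ-1WT density was 10.8 per Mb against 13.3, a ratio of 0.809 with an interval that included equality (0.546 to 1.16). For Igk the MIZ-1WT ratio was 0.841 (0.586 to 1.17) and the MIZ-1DPOZ ratio 0.929 (0.741 to 1.15). The 3 and 7 peaks of Igl gave ratios of 1.00 and 1.07 with intervals from 0.207 to 2.93 and from 0.431 to 2.21. Against the rest of the chromosome, only the Igh value of the MIZ-1DPOZ list lay below equality beyond counting error. Against up to 5 Mb on each side, which for Igh came to 9.02 Mb of sequence in all, both Igh values did. The ratios were 0.562 (0.379 to 0.802) for MIZ-1WT and 0.432 (0.320 to 0.569) for MIZ-1DPOZ. With single-copy summits alone, Igh and Igk lay below equality in both lists, with ratios of 0.161 and 0.385 for Igh and of 0.420 and 0.358 for Igk. These ratios divide by all sequence, repeat-masked or not. Of Igh 44.2% was masked and of Igk 51.8%, against 33.1% and 33.4% of the rest of their chromosomes. The part of this difference in the ratios was not tested.

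Most peaks of Igh and all those of Igk lay in the V parts, between the outermost V genes, which are also by far the longest parts. The map of summit pileup (the number of fragments over a summit, solved from the deposited scores) along the loci shows this distribution. The V part of Igh held 27 of its 30 MIZ-1WT peaks and 39 of its 50 MIZ-1DPOZ peaks, or 1.11 (0.733 to 1.62) and 1.61 (1.14 to 2.2) per 100 kb. The other parts of Igh held few peaks but were short. In the MIZ-1DPOZ list, the constant part had 4.17 peaks per 100 kb (1.68 to 8.59), the stretch beyond Igha 6.70 (0.812 to 24.2) and the J-C intron, with its single peak, 17.3 (0.438 to 96.3), all higher values than in the V part but with overlapping intervals. In the MIZ-1WT list the constant part had 0.596 (0.0151 to 3.32), the stretch beyond Igha 3.35 (0.0849 to 18.7) and the J-C intron the same 17.3. The V part of Igk held all 35 and all 84 of its peaks, 1.11 (0.774 to 1.55) and 2.67 (2.13 to 3.30) per 100 kb. The D and J part of Igh, 99.5 kb, held no peak in either list, which allows up to 3.01 per 100 kb, a limit above the density of the V parts. No peak lay in the J part, the J-C intron (2.51 kb) or the constant gene of Igk, but stretches this short could hold a peak at the density of the V part without one being seen. In Igl, all 10 peaks lay outside the J-C clusters, 8 of them between the clusters, where Iglv1 lies.

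**Figure D1:**
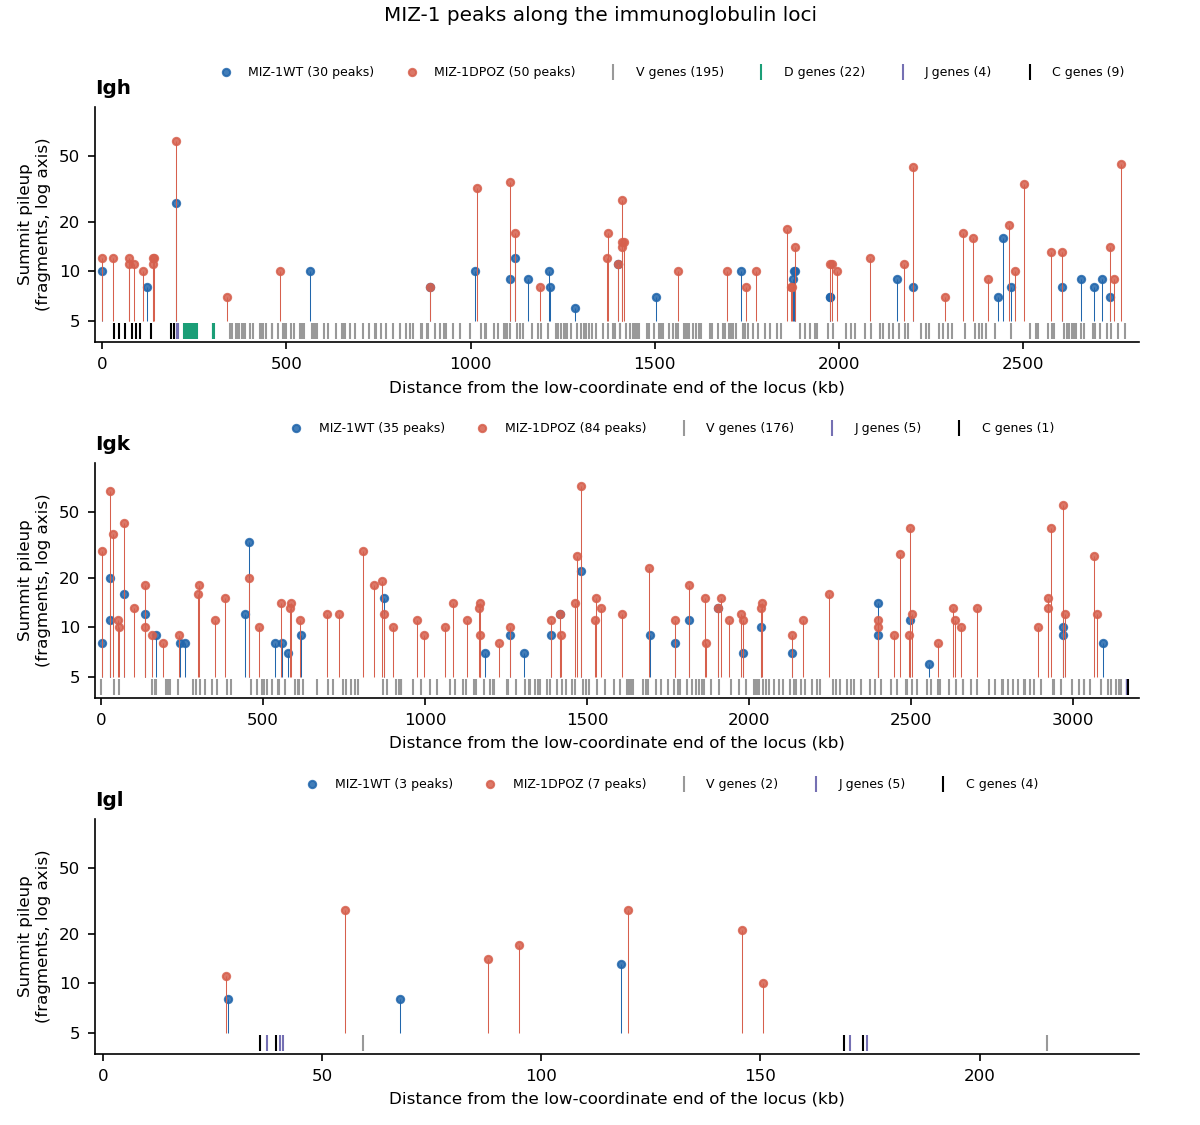
Summit pileup (fragments, log axis) of every MIZ-1WT and MIZ-1DPOZ peak along Igh, Igk and Igl, against the distance in kb from the low-coordinate end of each locus, with the annotated V, D, J and C genes, pseudogenes included, as ticks. Peaks are spread through the V parts of Igh and Igk, and the highest peak of the constant side of Igh, 62 fragments in the MIZ-1DPOZ list, stands just beside the J genes.

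Few V genes had a peak at their start. With the promoter window of the study, from 2000 bp before to 1000 bp after a start, 3 of 373 V genes (0.804%, 0.274 to 2.34) had a MIZ-1WT peak and 8 (2.14%, 1.09 to 4.17) had a MIZ-1DPOZ peak. Over all 55413 annotated genes, the shares were 16.9% and 28.9%, and over the 21938 protein-coding genes they were 30.9% and 48.7%. In the MIZ-1WT list these genes were Ighv6-6, Igkv1-133 and the pseudogene Ighv1-70. In the MIZ-1DPOZ list they were Igkv4-80, Igkv4-71, Igkv4-61, Igkv7-33, Igkv6-29, Igkv8-26 and the pseudogenes Igkv1-136 and Ighv1-45. No V gene was in both groups. The summit nearest to a V gene start was the MIZ-1DPOZ summit 567 bp upstream of Igkv7-33, with a pileup of 12, over a window of 83.1% masked bases. The most highly covered was the MIZ-1DPOZ peak 1623 bp upstream of Igkv1-136, with a pileup of 37 and a −log10 q of 22.7, whose summit sequence occurred 229 times in the genome. At the V genes without pseudogenes, the shares were 0.913% of 219 and 2.74%. No start of the 22 D genes or 14 J genes had a peak, and no summit of either list lay inside an annotated V, D, J or C segment.

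The J-C intron of Igh, which is 5.78 kb long and holds the enhancer Eμ and the switch region of Ighm, had 1 peak in each list, and the peaks covered nearly the same interval. The MIZ-1WT peak, chr12:113424308-113425283, had a summit pileup of 26 fragments, a fold enrichment of 8.66 and a −log10 q of 15.7, and the MIZ-1DPOZ peak, chr12:113424314-113425306, had a pileup of 62, a fold enrichment of 11.2 and a −log10 q of 43.0. It was the member with the second largest −log10 q in each list. The summits lay 1.71 kb and 2.37 kb upstream of the start of Ighm, the constant gene of IgM. On the coding strand, the MIZ-1WT interval of 976 bp held 135 GAGCT, 21 GGGCT and 36 GGGGT pentamers, which made up 98.4% of its bases. It was 49.7% G and 16.1% C. After scaling for the 1.34-fold greater depth of the MIZ-1DPOZ library, its pileup was 1.78 times that of the MIZ-1WT library (log2 0.83, 0.15 to 1.55). Scaled instead by the genome-wide background, which was 1.57 times as high in the MIZ-1DPOZ library, it was 1.52 times, with an interval that included equality (log2 0.61, -0.08 to 1.33). The local background that the authors' peak caller used at the summits stood at 2.46 times its genome-wide value for MIZ-1WT and 3.43 times for MIZ-1DPOZ. Its part in the pileups was not tested. By exact match, the sequences of 50 bases at the summits had median genomic counts of 1 (MIZ-1WT) and 2 (MIZ-1DPOZ). Reads that match inexactly may still align to other units of the repeat. How they were placed was not tested, so the summit position within the repeat is uncertain.

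To see whether peaks marked the other switch regions, stretches of 1-kb windows with at least 15 AGCT were joined. There were 7 such stretches in Igh, from 3.0 to 6.0 kb long, and 1 lay upstream of each constant gene except Ighd, beginning 0.271 to 1.98 kb from its start. All 7 held more G than C on the coding strand, 33.6% to 42.6% against 15.2% to 19.1%. The MIZ-1DPOZ list had 6 peaks in 4 of them. There were 3 upstream of Ighg3 (pileups 12, 11 and 12, with summits 2.35, 3.12 and 3.73 kb from its start), 1 upstream of Ighg1 (pileup 10, 5.53 kb), 1 upstream of Ighg2b (pileup 11, 3.99 kb) and the one upstream of Ighm. The stretches upstream of Igha, Ighe and Ighg2c had no peak in either list, although that of Igha held up to 52 AGCT per kb against 41 for Ighg3. In the MIZ-1WT list, only the stretch of Ighm held a peak.

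The AGCT-dense stretches of Igh held 20 MIZ-1DPOZ peaks per 100 kb (7.34 to 43.5) and 3.33 MIZ-1WT peaks (0.0844 to 18.6). The 3452 stretches made in the same way from the rest of the genome held 13.1 and 3.88 per 100 kb, both within those intervals. Counted by stretch, 57.1% of those in Igh held a MIZ-1DPOZ peak and 14.3% a MIZ-1WT peak, against 13.7% and 4.06% elsewhere. The Igh stretches were longer (30.0 kb in 7, against 4072.5 kb in 3452), so these shares are not matched for length. The 5 peaks upstream of the γ genes had −log10 q of 4.08 to 5.35, against a median of 5.05 on the rest of chromosome 12. None of them remained when the MIZ-1DPOZ list was shortened to the length of the MIZ-1WT list. The peak upstream of Ighm did remain. The profile of AGCT density along the constant side of Igh shows the 7 stretches above the peaks.

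**Figure D2:**
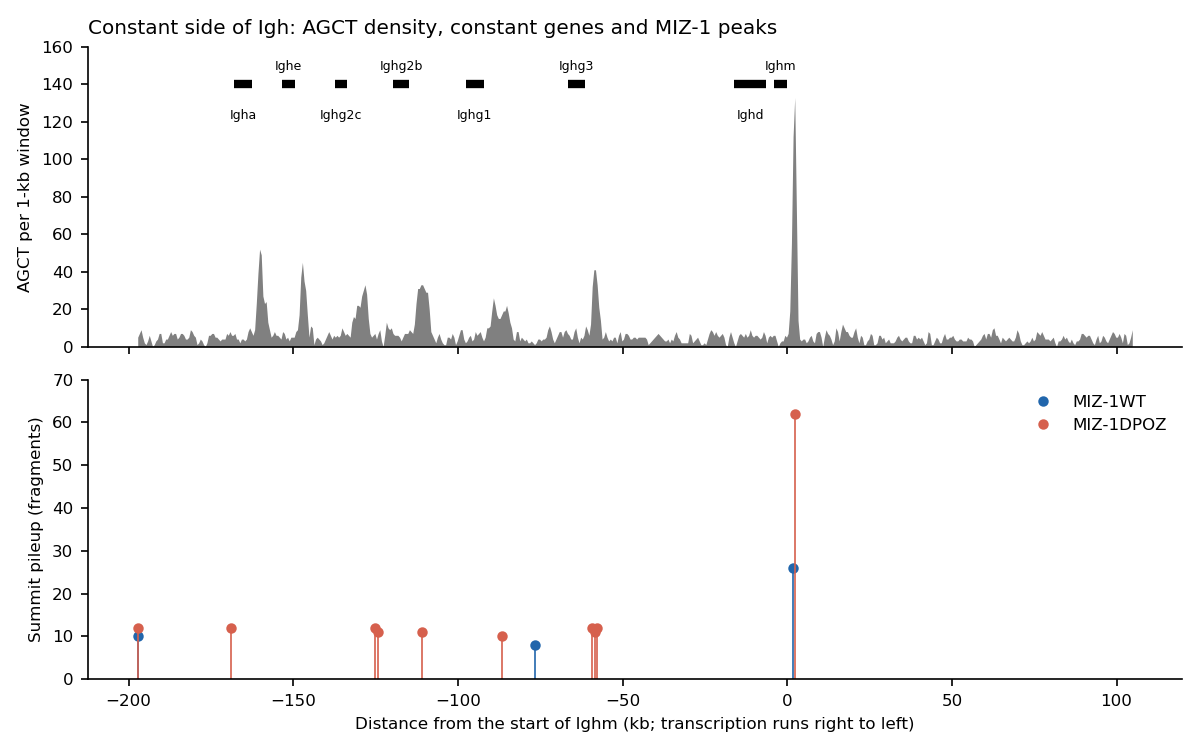
Top, number of AGCT in 1-kb windows against the distance from the start of Ighm in kb, with the 8 constant genes as black bars. Bottom, summit pileup (fragments) of the MIZ-1WT and MIZ-1DPOZ peaks over the same distance. The peaks upstream of Ighm, at 26 and 62 fragments, lie in the stretch of highest AGCT density. The MIZ-1DPOZ summit lies in the densest window (133 per kb) and the MIZ-1WT summit just outside it. The other peaks have 8 to 12 fragments.

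The constant part of Igh, 168 kb from Igha to Ighm, held 3 further peaks. The MIZ-1DPOZ list had 2 in masked sequence 8.74 and 9.39 kb upstream of Ighg2c, with pileups of 12 and 11 and summit sequences found 37 and 474 times in the genome. The single MIZ-1WT peak of this part, 15.1 kb downstream of the start of Ighg3, had a pileup of 8 and a sequence found 37 times. None of the 13 constant genes had a peak within it. Igkc, the κ constant gene, was 79.2 kb from the nearest upstream MIZ-1WT summit and 95.6 kb from the nearest MIZ-1DPOZ summit, and Iglc1, Iglc2, Iglc3 and Iglc4 had none within 15 kb upstream.

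Beyond Igha, where the 3′ regulatory region of the heavy chain begins, the rule took in 29.8 kb. The MIZ-1DPOZ list had a single-copy peak there with a pileup of 12, 6.31 kb from the start of Igha and just past its end. Both lists had a peak at the far end of this stretch, with pileups of 10 and 12 and a depth-scaled log2 ratio of -0.16 (-1.50 to 1.21). It covered the repeat with the unit of 17 bases shown above, which matched itself at 100% of positions when shifted by 1 unit. This summit sequence was found 26 times in the genome although it was not masked.

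In Igk, the highest MIZ-1WT peak was the one nearest to Igkv1-122. It had a pileup of 33, a fold enrichment of 17.9 and a −log10 q of 35.6 in the MIZ-1WT list, the largest of any member there and the 269th of the whole list. The overlapping MIZ-1DPOZ peak had a pileup of 20, a fold enrichment of 8.94 and a −log10 q of 14.4. It was the only one of 24 overlapping pairs whose depth-scaled pileup was lower in the MIZ-1DPOZ library beyond counting error (log2 ratio -1.15, -2.02 to -0.30), and 1.26% of all pairs of the series were called so. Summit sequences of both lists counted as single-copy.

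A GC-rich tandem repeat (77.6% G or C around the MIZ-1DPOZ summit), 3.5 kb downstream of the start of the outermost κ gene Igkv2-137, had MIZ-1WT and MIZ-1DPOZ pileups of 8 and 29 (log2 ratio 1.44, 0.27 to 2.78). The only pair with summits inside an annotated gene was at Rprl1, an RNase P RNA-like gene in the V part of Igk. It was single-copy, with pileups of 8 and 11 and a log2 ratio of 0.04 (-1.41 to 1.55).

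The sequence under the peaks differed from that of other peaks on the same chromosomes. In Igh, 96.7% (83.3 to 99.4) of the peaks of MIZ-1WT and 84% (71.5 to 91.7) of those of MIZ-1DPOZ had summit windows with over 50% repeat-masked bases, against 62.7% and 56.1% on the rest of chromosome 12. In Igk the shares were 94.3% (81.4 to 98.4) and 96.4% (90.0 to 98.8), against 64.3% and 60.4% on the rest of chromosome 6. All 10 Igl peaks were masked. The loci themselves were more repetitive than their chromosomes: 44.2% of Igh, 51.8% of Igk and 54.7% of Igl was masked, against 33.0% to 33.4% of the rest of each chromosome. Summit sequences found once in the genome made up 10.0% (3.46 to 25.6) and 34.0% (22.4 to 47.8) of Igh peaks, against 50.4% and 55.2% outside, and 22.9% (12.1 to 39.0) and 21.4% (14 to 31.4) of Igk peaks, against 45.8% and 55.5%.

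MIZ-1WT peaks of Igh were also AT-rich. Their median GC content was 41.5%, close to the 40% of the locus itself, whereas peaks on the rest of chromosome 12 had a median of 58.2%. Windows with less than 45% GC made up 17 of these 30 peaks (56.7%, 39.2 to 72.6) against 19% outside. In the MIZ-1DPOZ list, the Igh median was 58.5% against 59.7% outside. Of these peaks 14% (6.95 to 26.2) fell below 45%, against 5.95% outside, a share below that interval. The MIZ-1WT peaks of Igk had a median of 50.2% and the MIZ-1DPOZ peaks 54.2%, against 58.7% and 59.7% on the rest of chromosome 6. Windows with less than 45% GC made up 34.3% (20.8 to 50.8) and 8.33% (4.10 to 16.2) of them, against 20.8% and 7.25%.

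**Figure D3:**
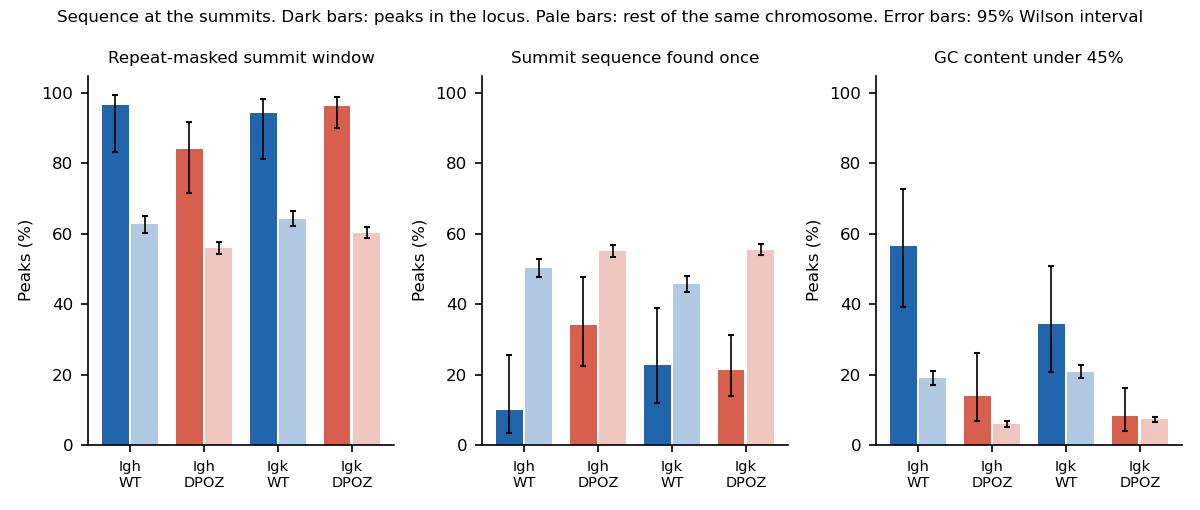
Percent of peaks in Igh and Igk (dark bars) and on the rest of chromosomes 12 and 6 (pale bars) whose summit window was over 50% masked, whose summit sequence occurred once in the genome, or whose window had under 45% GC, with 95% Wilson intervals as error bars. Masked windows are more frequent and single-copy summits less frequent in the loci in both lists, and the share under 45% GC is highest, at 56.7%, in the MIZ-1WT peaks of Igh.

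Members were grouped by sequence when their 201-bp summit windows shared at least 30 subsequences of 16 bases on either strand. This placed 157 of the 209 peaks (75.1%) in 25 families, and 13 families with 124 peaks spanned more than 1 locus. Since a peak of one list and its overlapping peak of the other carry the same sequence, some small families are a single site.

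Family 1 was the largest, with 43 peaks (16 in Igh, 24 in Igk and 3 in Igl) and a median of 2553 copies of the summit sequence in the genome. Its pileups were low in both lists, 6 to 15 with a median of 8 for MIZ-1WT and 7 to 14 with a median of 10 for MIZ-1DPOZ. It included the only peak between the V and D genes of Igh, a MIZ-1DPOZ peak with a pileup of 7. Peaks of this sequence made up 20.6% of the members of each list, against 11.8% of MIZ-1WT peaks and 8.31% of MIZ-1DPOZ peaks outside the loci. As the members themselves define the families, these shares are descriptions.

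Family 2 held the highest MIZ-1DPOZ peaks of the V parts. It had 30 peaks, 22 of them in Igk, 6 in Igh and 2 in Igl, with a median GC content of 63.9%. Its 9 MIZ-1WT peaks had pileups of 8 to 22 with a median of 11, and its 21 MIZ-1DPOZ peaks had pileups of 10 to 72 with a median of 29. Before any scaling for depth, the range of the MIZ-1DPOZ peaks overlapped that of the MIZ-1WT peaks but reached over 3 times as high. The largest, chr6:69035511-69036403, 7.32 kb downstream of the start of Igkv4-79, had pileups of 22 in the MIZ-1WT library and 72 in the MIZ-1DPOZ library and −log10 q of 11.4 and 44.2, the largest of any MIZ-1DPOZ member. Those 10.8 kb upstream of Igkv1-136 and 6.54 kb downstream of the start of Igkv3-12 had MIZ-1DPOZ pileups of 67 and 55, against 20 and 10 in the MIZ-1WT library. In Igh, the peak 11.4 kb upstream of the V segment Gm38184 had pileups of 8 and 43, and the peak over the processed pseudogene Gm9260, 8.18 kb upstream of Ighv1-84, had a MIZ-1DPOZ pileup of 45 and no overlapping MIZ-1WT peak.

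Family 3 had 13 peaks, 2 of the MIZ-1WT list, both with a pileup of 9, and 11 of the MIZ-1DPOZ list with pileups of 11 to 35. Its highest peak, 2.19 kb downstream of the start of Ighv8-1, had pileups of 9 and 35 in the overlapping pair. The AT-rich families 4 and 9 were mostly of the MIZ-1WT list. Windows with less than 45% GC were also more frequent in that list outside the loci. They made up 19% of MIZ-1WT peaks and 5.95% of MIZ-1DPOZ peaks on the rest of chromosome 12. On the rest of chromosome 6 the shares were 20.8% and 7.25%. Whether families 4 and 9 lean further to the MIZ-1WT list than their sequences do elsewhere was not tested. Family 4, with a median GC content of 39.8%, had 7 MIZ-1WT peaks and 2 MIZ-1DPOZ peaks, and family 9, at 37.3%, had 4 and 0. The latter included the highest MIZ-1WT peak of the V part of Igh, with a pileup of 16, 21.8 kb downstream of the start of Ighv1-70. The plot of pileup by family shows that family 2 reached the highest values, and that family 1 stayed at 15 fragments or below.

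**Figure D4:**
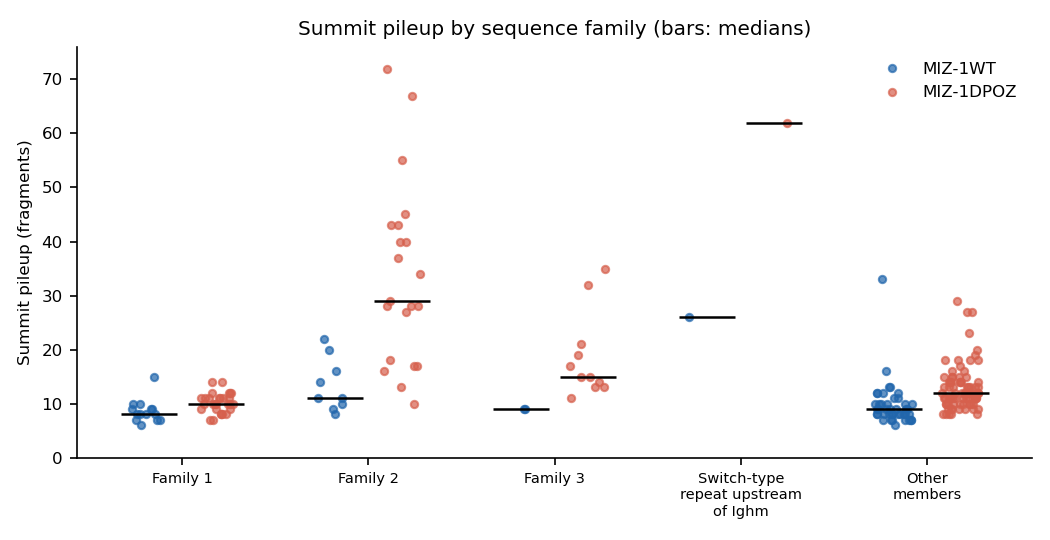
Summit pileup (fragments) of each peak in the loci by sequence family and list, with black bars for medians. MIZ-1DPOZ peaks of family 2 range from 10 to 72 fragments, family 1 stays between 6 and 15 in both lists, and the switch-type repeat upstream of Ighm (26 and 62) is a single site.

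Whether the genotypes shared sites in the loci was examined by overlap of at least 1 bp. Of the MIZ-1WT members, 26 of 68 (38.2%, 27.6 to 50.1) overlapped a MIZ-1DPOZ peak, against 53.7% of all MIZ-1WT peaks. The share was 23.3% (11.8 to 40.9) in Igh, 54.3% (38.2 to 69.5) in Igk and 0 of 3 in Igl. Of the MIZ-1DPOZ members, 24 of 141 (17%, 11.7 to 24.1) overlapped a MIZ-1WT peak, against 22.1% of all MIZ-1DPOZ peaks, a share within the interval. For MIZ-1WT members, the interval of Igh lay below the share of the whole list and that of Igk included it. In Igl, the nearest summits of the lists, both within the antisense gene 2010309G21Rik, belonged to peaks that did not overlap.

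The 26 MIZ-1WT members gave 24 pairs, 7 in Igh and 17 in Igk, after keeping the highest MIZ-1WT peak for each MIZ-1DPOZ peak. The median depth-scaled log2 ratio of MIZ-1DPOZ over MIZ-1WT pileup was 0.16, with quartiles of -0.31 and 1.30, against 0.34 over the 17090 pairs outside the loci. It was 0.58 in Igh and -0.04 in Igk. The sign of the median in the loci was not stable: it was -0.07 when scaled by the background, -0.04 over the 17 pairs with summits within 100 bp and -0.12 over the 4 pairs of single-copy peaks. The interval lay above equality in 9 of the 24 pairs and below it in 1, against 25.2% and 1.26% of all pairs of the series. With the background scaling, which lowered the median over all pairs to 0.12, there were 7 and 1, against 20.7% and 2.00%, and the pairs near Ighm and Igkv1-135 were the ones whose intervals then included equality. These ratios compare 2 libraries, not the genotypes.

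Of the 9 higher pairs, 6 were of family 2, and the others were the switch-type repeat upstream of Ighm, the family 3 peak near Ighv8-1 and the GC-rich repeat near Igkv2-137. The 7 pairs of family 2 had a median log2 ratio of 1.32 (lowest -0.91, highest 2.04). The 2297 pairs with family 2 sequence outside the loci had a median of 1.35, and 85.5% of them were called higher, against 6 of 7 in the loci. With the background scaling these were 75.4% and 5 of 7. The 3 pairs of family 1 had a median of -0.13 with none called, and 3.68% of the 923 pairs with its sequence outside the loci were called higher. The family 3 pair had 1.54, and the 1260 pairs with its sequence outside the loci had a median of 1.40, with 80.3% called higher. The lowest family 2 pair, near Igkv12-38 with pileups of 14 and 10, lay below the lowest of the family 2 pairs outside the loci (-0.65), but its interval included equality (-2.24 to 0.37). The plot of overlapping pairs shows the pileups of both libraries for each site.

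**Figure D5:**
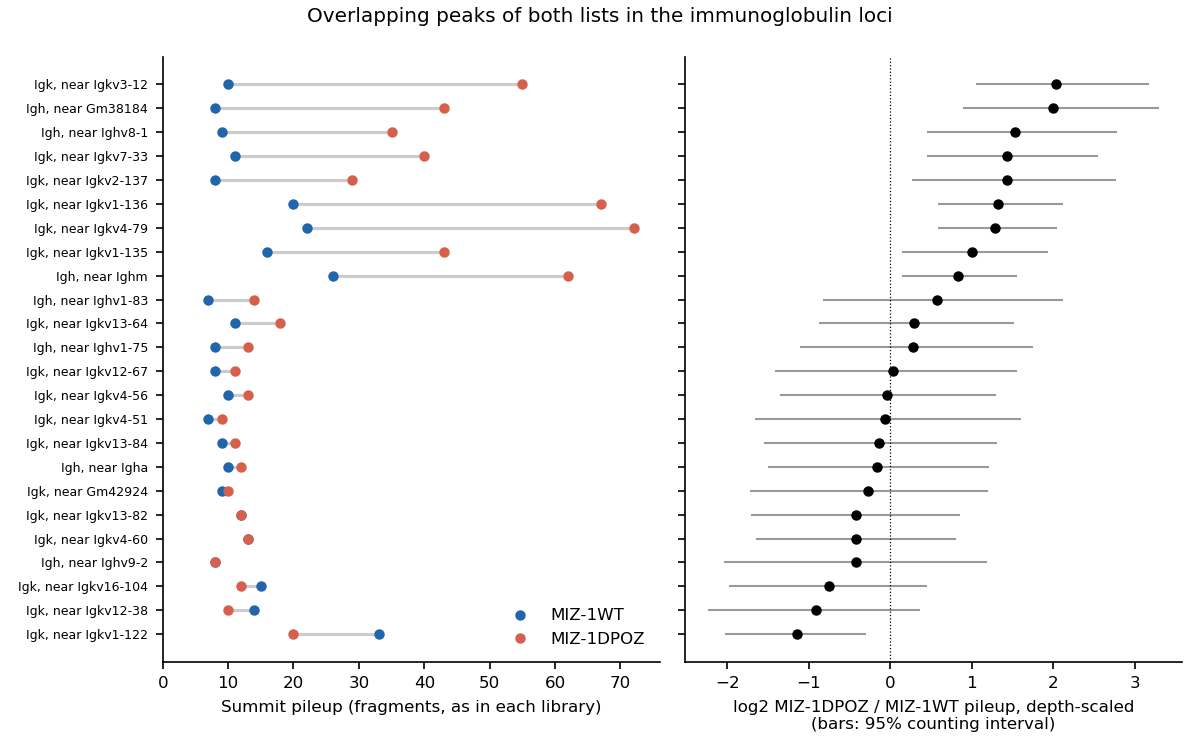
Left, MIZ-1WT and MIZ-1DPOZ summit pileups (fragments) at the 24 overlapping pairs, each named by the nearest V, D, J or C gene, and right, the log2 ratio after depth scaling with its 95% counting interval. The ratio lies above equality beyond its interval in the upper 9 pairs and below it in the pair near Igkv1-122.

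The genes whose products rearrange these loci were examined for peaks at their own promoters. Of 12 genes of V(D)J joining, 3 (25%, 8.89 to 53.2) had a MIZ-1WT peak and 5 (41.7%, 19.3 to 68.0) a MIZ-1DPOZ peak, and the intervals included the 30.9% and 48.7% of all protein-coding genes. Those with peaks in both lists were Hmgb1 and Hmgb2, which encode DNA-bending cofactors of the recombinase (pileups 10 and 13, and 13 and 13), and Xrcc6, which encodes the Ku70 end-binding protein (13 and 10). Dntt, the template-independent polymerase (pileup 8), and Lig4, the ligase of end joining (13), had only a MIZ-1DPOZ peak. Rag1 and Rag2, the recombinase genes, Dclre1c, Prkdc, Xrcc4, Xrcc5 and Nhej1 had none. Of 11 genes of class switching and somatic hypermutation, 6 (54.5%, 28 to 78.7) had a MIZ-1WT peak and 7 (63.6%, 35.4 to 84.8) a MIZ-1DPOZ peak, with intervals that again included the shares of protein-coding genes. Ung, the uracil glycosylase, Msh6, a mismatch sensor, Exo1, an exonuclease, Rif1 and H2afx had both, with the highest pileups at Msh6 (14 and 23). Atm and Nbn had a peak in the MIZ-1DPOZ list alone (pileups 14 and 14) and Trp53bp1 in the MIZ-1WT list alone (8). Apex1, Apex2 and Mre11a had none.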

How the data were processed

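ChIP-seq was made from 4 libraries, 1 ChIP and 1 input for each of 2 genotypes. Per the study's methods, the authors used trimmed paired-end reads, the aligner bwa with the mm10 genome, and MACS2 for the peaks of each genotype. The submitters' processing notes name Bowtie2 2.2.6 and MACS2 2.1.0 instead. The treatment of duplicates and multi-mapping reads is not given in the sources used here. The deposited values are the fold enrichment at the summit (a ratio to local background) and the −log10 of its p-value and q-value. Reads and inputs were not analysed here.

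Summit pileups were solved from the deposited fold and −log10 p (100% of peaks), and the depth ratio from the most frequent background over the smallest peak width. Median pileups over whole lists were 9 and 12 fragments. Genes came from GENCODE vM21 and sequence from RefSeq's GRCm38.p6. Parts of a locus were cut at the outer ends of the annotated segments. Copy number is the median genomic count of 5 sequences of 50 bases at the summit, and masking was read from the soft-masked genome in windows of 201 bp. Overlaps and shares leave out 3 peaks off the standard chromosomes. Shares carry Wilson, counts exact Poisson and ratios exact binomial intervals of 95%, checked on simulated data. Named peaks are, per list, the 5 of largest −log10 q, the highest of each part and all of the constant side of Igh. The region, lists and rules were chosen with earlier results of these data known, and the sequence families, AGCT stretches and other peaks named after seeing the peaks. Of the genes of class switching and the sequences under peaks, some are not reported here. Python 3.11.15, numpy 2.4.6, pandas 2.3.3 and scipy 1.17.1 were used.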

Additional observations from a re-analysis of the deposited data

How the results depend on the processing

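No paired analysis was possible because there was only 1 ChIP sample per genotype. Of 77 alternative values for 19 results, 46 stayed within the counting interval (for counts of peaks or pairs, within 1.5 times), 31 moved and none reversed a direction whose interval excluded equality. The median log2 pileup ratio of overlapping pairs, 0.16 with an interval that included 0, was negative under all 3 of its alternatives (-0.12, -0.07 and -0.04), and 0 of 4 single-copy pairs and 4 of 17 pairs with summits within 100 bp were higher in the MIZ-1DPOZ library. With only peaks at or above a −log10 q of 5, the density ratio was 0.446 for Igh and 0 for Igl in the MIZ-1WT list, 7.78% of MIZ-1DPOZ members overlapped a MIZ-1WT peak, 0% of V genes had a MIZ-1WT peak, and the V parts held 14 and 78 peaks and the constant part of Igh 0 and 4. With single-copy summits, density ratios were 0.161 (MIZ-1WT) and 0.385 (MIZ-1DPOZ) for Igh, 0.420 and 0.358 for Igk and 0 for Igl (MIZ-1DPOZ), 11.4% of MIZ-1DPOZ members overlapped, 0.268% of V genes had a peak in either list, the V parts held 10 and 30 peaks, the constant part 0 and 4, and the J-C intron of Igh no MIZ-1DPOZ peak, since its summit sequence occurred 2 times. The single-copy density ratios divide by all sequence, repeat-masked or not. With lists of equal length, 25% of MIZ-1WT and 24.6% of MIZ-1DPOZ members overlapped, and the MIZ-1DPOZ list held 55 peaks in the V parts and 0 in the constant part of Igh. With flanks of up to 5 Mb in place of the chromosome, the density ratio of Igh was 0.432 for MIZ-1DPOZ and 0.562 for MIZ-1WT, the latter now below equality beyond its interval. With summits within 100 bp, 25% of MIZ-1WT members overlapped. The overlap shares of all peaks, and the calls over all pairs, are not given here for these settings. The shifts in overlap and in calls therefore cannot be called particular to the members. Within 500 bp of the start, 0% and 0.268% of V genes had a peak, against 13.8% and 23.5% of all genes. The shares of all genes with single-copy summits were 15.3% and 25.3%. At the −log10 q limit of 5, 5.45% of all genes had a MIZ-1WT peak. Why these values moved was not tested. Median pileups of the lists were 9 and 12 fragments, and the lists do not show how reads at multi-copy summits were placed.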

Other observations

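Letters of known B cell and recombination motifs were counted under the peaks of the loci. ATTTGCAT, the octamer of V gene promoters and the heavy chain enhancer, stood on either strand of the 201-bp summit window of 1 of 68 MIZ-1WT members (1.47%, 0.260 to 7.87) and 1 of 141 MIZ-1DPOZ members (0.709%, 0.125 to 3.91), against 0.978% and 0.641% of the peaks outside the loci. CACAGTG, the heptamer of recombination signals, stood in 1 MIZ-1WT member (1.47%, 0.260 to 7.87) and 3 MIZ-1DPOZ members (2.13%, 0.726 to 6.07), against 4.27% and 4.01%. For both motifs the intervals included the shares outside. At least 5 AGCT stood in 3 MIZ-1WT members (4.41%, 1.51 to 12.2) against 2.39% outside and in 9 MIZ-1DPOZ members (6.38%, 3.39 to 11.7) against 2.22%. The MIZ-1DPOZ interval lay above the share outside, and the MIZ-1WT interval included it. The 9 MIZ-1DPOZ members included the peaks in the AGCT-dense stretches upstream of Ighm and Ighg2b and the 3 upstream of Ighg3. A match is a description of letters and not a binding site.

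Tandem repeats, in which at least 75% of bases equalled the base 1 unit away, lay under 18 of the 209 members, 7 of the MIZ-1WT list (10.3%, 5.08 to 19.8) and 11 of the MIZ-1DPOZ list (7.80%, 4.41 to 13.4). The shares outside the loci, 10.1% and 9.28%, lay within these intervals.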
